A study of Mus musculus with 4 samples.

Results

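The 10 genes of elastic fibres and their microfibrils that were followed here are *Eln*, *Fbn1*, *Fbn2*, *Fbln1*, *Fbln2*, *Fbln5*, *Mfap2*, *Mfap4*, *Mfap5* and *Emilin1*. They were chosen by name, and all 10 were found among the 24933 named genes of the deposited table, with 22 of its 63759 transcripts. For each gene the transcript with the longest gene body is given. RNA-seq of total RNA was performed in *Hmga2*+/+ and *Hmga2*-/- mouse embryonic fibroblasts (MEF), connective tissue cells cultured from C57BL/6 embryos of day 15.5. Cells of both genotypes had been immortalized with SV40 and were starved overnight in 1% FCS, so all libraries share both conditions. The 4 groups are *Hmga2*+/+ Ctrl, *Hmga2*+/+ TGFB1, *Hmga2*-/- Ctrl and *Hmga2*-/- TGFB1, where Ctrl cells received water and TGFB1 cells the human recombinant cytokine at 10 ng/ml, a growth factor that drives matrix production, over 24 h. The labels give the knockout genotype as Hmga-/- in one field and as *Hmga2*-/- in the title. Whether the cells of a genotype came from 1 embryo, 1 clone or several is not given in the sources used here. Each group has 1 library, so differences between libraries stand without a replicate check, no test was run, and genotype and culture cannot be told apart.

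Elastic fibres give skin, lung and arteries their recoil. A core of cross-linked elastin is laid down on a scaffold of microfibrils, whose backbone is made of fibrillins. Microfibril-associated glycoproteins bind the fibrillins, fibulins join elastin to microfibrils and to the cross-linking enzymes, and emilins sit where elastin and microfibrils meet. Microfibrils also hold latent TGF-beta in the matrix through its binding proteins. Fibroblasts and smooth muscle cells are main producers of these proteins.

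Expression is given as RPKM, the reads on a transcript scaled to exonic length and library depth, so levels of different genes can be compared per length. Low RPKM values are whole multiples of 1 read, from which between 56140000 and 57290000 mapped reads per library were derived. Values of 0 RPKM were set to 0.001, and a gene was called higher or lower between libraries at 1.5-fold or more. The 95% intervals of ratios are exact intervals from these reads, cover counting error only, and compare libraries rather than conditions. *Hmga2*, the targeted gene, had 14.8 RPKM in *Hmga2*+/+ Ctrl and 40.7 RPKM in *Hmga2*+/+ TGFB1 and 0 reads in both *Hmga2*-/- libraries, at least 1190-fold lower in Ctrl against a floor of 3 reads in the library. *Ccn2*, a known TGFB1 target, went from 13.2 to 173 RPKM in *Hmga2*+/+ MEF, and the *Hmga2*-/- values were 24.9 RPKM in Ctrl and 359 RPKM in TGFB1. Of 8 fibroblast markers, 8 reached 1 RPKM in at least 1 library and 7 in all 4, with summed levels between 1590 and 2030 RPKM that rest mostly on *Vim* and the collagen genes. Of 4 epithelial and 4 blood markers 0 did, with summed levels of at most 0.787 and 0.046 RPKM. Of the 4 smooth muscle markers, which summed to between 14.2 and 20.5 RPKM, *Myh11* and *Des* stayed at or under 0.054 RPKM. *Cnn1* lay at 0.938 and 1.45 RPKM in *Hmga2*+/+ and at 2.23 and 3.49 RPKM in *Hmga2*-/- MEF (Ctrl and TGFB1). *Smtn*, which made up most of each sum, had 13.2 and 15.3 RPKM in *Hmga2*+/+ and 12.9 and 16.9 RPKM in *Hmga2*-/- MEF. Of 4 endothelial markers (summed levels 3.89 to 8.14 RPKM) *Kdr* and *Tek* reached 1 RPKM, and *Pecam1* and *Cdh5* stayed at or under 0.048 RPKM. The 4 chondrocyte markers summed to between 2.09 and 6.21 RPKM, with *Col2a1* at or under 0.643 RPKM. Of 4 skeletal muscle markers 3 were at 0 in all libraries and *Acta1* ran from 0.069 to 2.64 RPKM.

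TGFB1 treatment was followed by opposite changes within the elastic fibre genes. Of the 10 genes, 6 rose by 1.5-fold or more in *Hmga2*+/+ MEF (*Mfap5*, *Fbln2*, *Eln*, *Mfap4*, *Fbn1* and *Fbln5*), 3 fell (*Mfap2*, *Fbln1* and *Emilin1*) and *Fbn2* stayed within 1.5-fold. Of the 11025 genes that reached 1 RPKM in any library, which include all 10, 11.7% rose and 17.1% fell. In *Hmga2*-/- MEF the same 6 rose and the same 3 fell, compared with 13.4% and 15.5% of all genes. The median log2 ratio of the 10 genes was 0.94 in *Hmga2*+/+ and 0.93 in *Hmga2*-/- MEF, while that of all genes was -0.05 and 0.01. Several markers moved with TGFB1 too. Of the fibroblast markers, *Dcn* fell 2.69-fold in *Hmga2*+/+ and 4.08-fold in *Hmga2*-/- MEF, *Lum* 2.99-fold and 2.88-fold and *Pdgfra* 2.18-fold and 1.77-fold, while *Thy1* rose 1.61-fold and 2.16-fold. *Pdgfrb* had ratios of 1.34-fold and 1.58-fold, and *Col1a1*, *Col1a2* and *Vim* stayed within 1.5-fold in both genotypes. The summed chondrocyte markers went from 3.40 to 6.02 RPKM in *Hmga2*+/+ MEF and reached 6.21 RPKM from 2.09 RPKM in *Hmga2*-/- MEF. Among them *Acan* had 0.039 and 1.15 RPKM in *Hmga2*+/+ Ctrl and TGFB1 and 0.024 and 0.609 RPKM in the *Hmga2*-/- libraries, and *Sox9* had ratios of 1.48-fold and 2.96-fold. Of the endothelial markers *Kdr* rose 4.01-fold and 5.08-fold and *Tek* fell 8.33-fold and 8.24-fold. The smooth muscle marker *Cnn1* rose 1.55-fold and 1.57-fold, and the skeletal muscle marker *Acta1* rose 6.17-fold and 7.74-fold. The *Acta1* ratios rest on 6 and 38 reads in *Hmga2*+/+ and on 30 and 234 reads in *Hmga2*-/- MEF. *Acta1* reached 1 RPKM only in the *Hmga2*-/- TGFB1 library. The part of these markers in the results was not tested. In RNA of whole cultures, fewer cells of a type and less RNA per cell cannot be told apart.

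**Figure D1:**
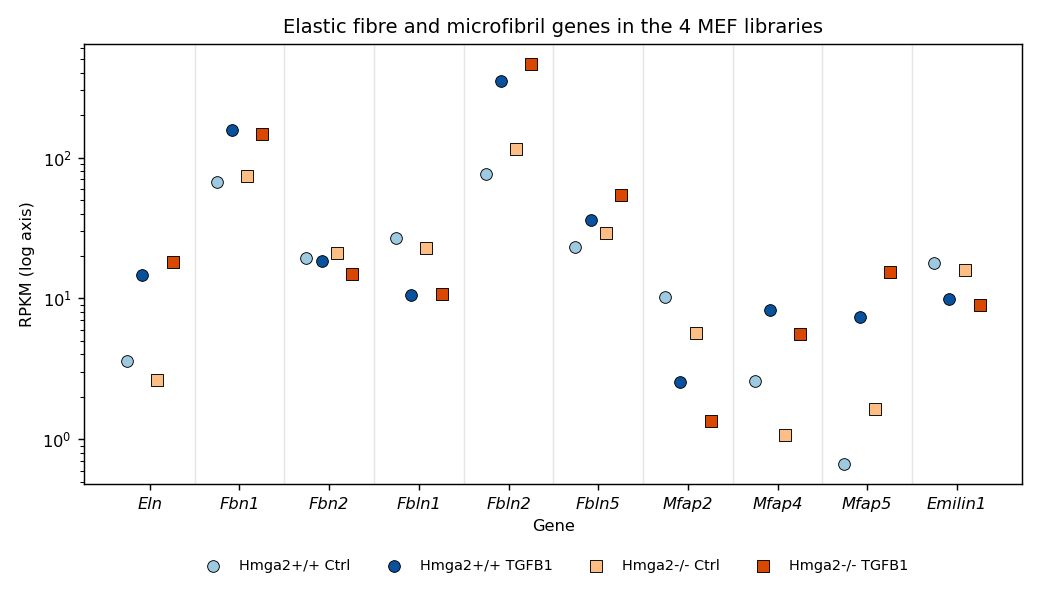
RPKM (vertical axis, logarithmic) of the 10 genes (horizontal axis) in the 4 libraries, with circles for *Hmga2*+/+ and squares for *Hmga2*-/- MEF, pale for Ctrl and dark for TGFB1; each point is 1 library. *Fbln2* reaches 461 RPKM in the *Hmga2*-/- TGFB1 library, and *Mfap5* starts at 0.666 RPKM in the *Hmga2*+/+ Ctrl library.

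In the plot of levels, *Fbln2* and *Fbn1* stood above the other 8 genes in every library. By RPM, which scales reads to library depth without correction for length, the 10 genes together took 1510 RPM in *Hmga2*+/+ Ctrl, 3630 in *Hmga2*+/+ TGFB1, 1770 in *Hmga2*-/- Ctrl and 4120 in *Hmga2*-/- TGFB1. *Fbn1* and *Fbln2* made up 65.7% and 69.5% of these reads in the Ctrl libraries and 84.8% and 84.5% in the TGFB1 libraries, in the order *Hmga2*+/+ and *Hmga2*-/-. The other 8 genes together took 518 RPM in Ctrl and 552 RPM in TGFB1 in *Hmga2*+/+ MEF, and 539 and 638 RPM in *Hmga2*-/- MEF, so most of the added reads after TGFB1 were on *Fbn1* and *Fbln2*.

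*Eln* encodes tropoelastin, the soluble precursor of the elastic core. Its single transcript lies on the minus strand of mm10 at chr5:134702595-134747323. It had 3.61 RPKM in *Hmga2*+/+ Ctrl, 14.6 RPKM in *Hmga2*+/+ TGFB1, 2.63 RPKM in *Hmga2*-/- Ctrl and 18.1 RPKM in *Hmga2*-/- TGFB1. Both TGFB1 libraries were higher than both Ctrl libraries, and the *Hmga2*-/- libraries held the lowest and the highest of the 4 values. *Eln* was higher with TGFB1 by 4.04-fold in *Hmga2*+/+ (log2 ratio 2.02, interval 1.90 to 2.13) and 6.89-fold in *Hmga2*-/- MEF (2.78, 2.66 to 2.91). Among the 11025 genes ranked by log2 ratio, *Eln* was the gene ranked 150 from the top in *Hmga2*+/+ and 94 in *Hmga2*-/- MEF. Per length, *Eln* remained far below *Fbn1*, at 0.0542 of the *Fbn1* level in *Hmga2*+/+ Ctrl, 0.0927 in *Hmga2*+/+ TGFB1, 0.0356 in *Hmga2*-/- Ctrl and 0.124 in *Hmga2*-/- TGFB1.

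*Fbn1* and *Fbn2* encode the fibrillins, the long glycoproteins that polymerize into the microfibril backbone; fibrillin from *Fbn2* is mainly a protein of developing tissue. *Fbn1* (minus strand, chr2:125300594-125506438) had 66.6 RPKM in *Hmga2*+/+ Ctrl, 158 RPKM in *Hmga2*+/+ TGFB1, 74.0 RPKM in *Hmga2*-/- Ctrl and 146 RPKM in *Hmga2*-/- TGFB1. The TGFB1 libraries of both genotypes lay above the Ctrl libraries, a rise of 2.37-fold in *Hmga2*+/+ (log2 ratio 1.24, interval 1.22 to 1.26) and 1.98-fold in *Hmga2*-/- MEF (0.99, 0.97 to 1.00). *Fbn2* had 19.5 RPKM in *Hmga2*+/+ Ctrl, 18.5 RPKM in *Hmga2*+/+ TGFB1, 21.0 RPKM in *Hmga2*-/- Ctrl and 14.9 RPKM in *Hmga2*-/- TGFB1. *Fbn2* was the only one of the 10 genes within 1.5-fold in both genotypes, with log2 ratios of -0.07 (-0.11 to -0.04) in *Hmga2*+/+ and -0.49 (-0.53 to -0.45) in *Hmga2*-/- MEF. The *Fbn1* level was 3.42 times that of *Fbn2* in *Hmga2*+/+ Ctrl and 3.53 times in *Hmga2*-/- Ctrl, and 8.51 and 9.80 times in the TGFB1 libraries. With the transcripts of the highest mean RPKM it was 2.61 and 2.77 times in Ctrl and 6.55 and 7.46 times in TGFB1, so the size depends on the transcript.

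*Mfap2* and *Mfap5* encode a pair of related small glycoproteins that bind fibrillin, and their order differed between Ctrl and TGFB1. *Mfap2* (plus strand, chr4:141010424-141015984) had 10.2 RPKM in *Hmga2*+/+ Ctrl, 2.56 RPKM in *Hmga2*+/+ TGFB1, 5.67 RPKM in *Hmga2*-/- Ctrl and 1.35 RPKM in *Hmga2*-/- TGFB1. *Mfap5* (plus strand, chr6:122513676-122529287) had 0.666, 7.38, 1.65 and 15.5 RPKM in the same order of libraries, from 52, 588, 130 and 1229 reads. In both Ctrl libraries *Mfap2* was the higher gene and in both TGFB1 libraries *Mfap5* was. *Mfap2* fell 4.00-fold in *Hmga2*+/+ (log2 ratio -2.00, interval -2.26 to -1.74) and 4.19-fold in *Hmga2*-/- MEF (-2.07, -2.44 to -1.71). *Mfap5* rose 11.1-fold (3.47, 3.06 to 3.91) and 9.40-fold (3.23, 2.97 to 3.50), the largest ratio of the 10 genes in each genotype. Among all genes tested it was ranked 40 from the top in *Hmga2*+/+ and 58 in *Hmga2*-/- MEF. Adding 1 RPKM to every value, which pulls low genes together, gave *Mfap5* a log2 ratio of 2.33 in *Hmga2*+/+ and 2.64 in *Hmga2*-/- MEF.

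The level of *Mfap5* over that of *Mfap2* was 0.0652 (0.0481 to 0.0866) in *Hmga2*+/+ Ctrl and 2.88 (2.41 to 3.47) in *Hmga2*+/+ TGFB1. In *Hmga2*-/- MEF it was 0.291 (0.236 to 0.357) in Ctrl and 11.5 (9.13 to 14.5) in TGFB1. *Mfap2* has a second transcript with the higher level, of 16.4 and 4.01 RPKM in *Hmga2*+/+ and 9.59 and 2.15 RPKM in *Hmga2*-/- MEF. With that transcript the ratio was 0.0405, 1.84, 0.172 and 7.22 in the same order, so the change of order did not depend on the transcript.

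*Mfap4*, which encodes a fibrinogen-domain glycoprotein that binds elastin and fibrillin, rose like *Eln*. It had 2.58 RPKM in *Hmga2*+/+ Ctrl, 8.27 RPKM in *Hmga2*+/+ TGFB1, 1.08 RPKM in *Hmga2*-/- Ctrl and 5.63 RPKM in *Hmga2*-/- TGFB1. The TGFB1 libraries were higher in both genotypes, and within each treatment the *Hmga2*-/- library was lower. The rise was 3.20-fold in *Hmga2*+/+ (log2 ratio 1.68, interval 1.46 to 1.90) and 5.21-fold in *Hmga2*-/- MEF (2.38, 2.06 to 2.72). These ratios rest on 218 and 712 reads in *Hmga2*+/+ and on 92 and 482 reads in *Hmga2*-/- MEF. These are fewer than behind any other of the 10 genes except *Mfap2* and *Mfap5*, and in *Hmga2*-/- MEF fewer than behind *Mfap5* too.

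The 3 fibulins split in the same way. *Fbln2*, whose product binds fibrillin and tropoelastin, had 76.4 RPKM in *Hmga2*+/+ Ctrl and 347 RPKM in *Hmga2*+/+ TGFB1, and the *Hmga2*-/- values were 114 RPKM in Ctrl and 461 RPKM in TGFB1. Its rank by level among all genes tested went from 265 to 33 in *Hmga2*+/+ and from 159 to 25 in *Hmga2*-/- MEF. The log2 ratios were 2.18 (2.16 to 2.21) and 2.02 (2.0 to 2.04), a 4.54-fold and a 4.05-fold change. *Fbln5*, whose product brings elastin to microfibrils and is needed for elastic fibre assembly, went from 23.2 to 35.9 RPKM in *Hmga2*+/+ MEF, and the *Hmga2*-/- values were 29.3 RPKM in Ctrl and 54.0 RPKM in TGFB1. These changes of 1.55-fold (log2 ratio 0.63, interval 0.59 to 0.67) and 1.84-fold (0.88, 0.85 to 0.92) were the smallest of the 6 increases. The call in *Hmga2*+/+ MEF was lost with the *Fbln5* transcript of the highest mean RPKM, for which the log2 ratio was 0.56.

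*Fbln1*, an elastic fibre and basement membrane fibulin, had 27.0 RPKM in *Hmga2*+/+ Ctrl, 10.5 RPKM in *Hmga2*+/+ TGFB1, 22.7 RPKM in *Hmga2*-/- Ctrl and 10.7 RPKM in *Hmga2*-/- TGFB1. The 2 Ctrl libraries were high and the 2 TGFB1 libraries low, by 2.56-fold in *Hmga2*+/+ (log2 ratio -1.36, interval -1.43 to -1.28) and 2.13-fold in *Hmga2*-/- MEF (-1.09, -1.17 to -1.02). The level of *Fbln2* over that of *Fbln1* was 2.83 in *Hmga2*+/+ Ctrl and 5.00 in *Hmga2*-/- Ctrl, and 33.0 and 43.2 in the TGFB1 libraries. With the transcripts of the highest mean RPKM it was 2.16 and 3.82 in Ctrl and 25.3 and 32.8 in TGFB1. *Fbln5* was below *Fbln1* in *Hmga2*+/+ Ctrl, at 0.859 of its level (0.828 to 0.890), and above it at 3.41, 1.29 and 5.06 times in *Hmga2*+/+ TGFB1, *Hmga2*-/- Ctrl and *Hmga2*-/- TGFB1.

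*Emilin1* encodes a glycoprotein of the elastin-microfibril interface that also holds back the processing of pro-TGF-beta. It had 17.8 RPKM in *Hmga2*+/+ Ctrl, 9.95 RPKM in *Hmga2*+/+ TGFB1, 15.8 RPKM in *Hmga2*-/- Ctrl and 8.96 RPKM in *Hmga2*-/- TGFB1. It fell 1.78-fold in *Hmga2*+/+ (log2 ratio -0.83, interval -0.92 to -0.75) and 1.76-fold in *Hmga2*-/- MEF (-0.82, -0.90 to -0.73), the closest pair of responses among the 10 genes.

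**Figure D2:**
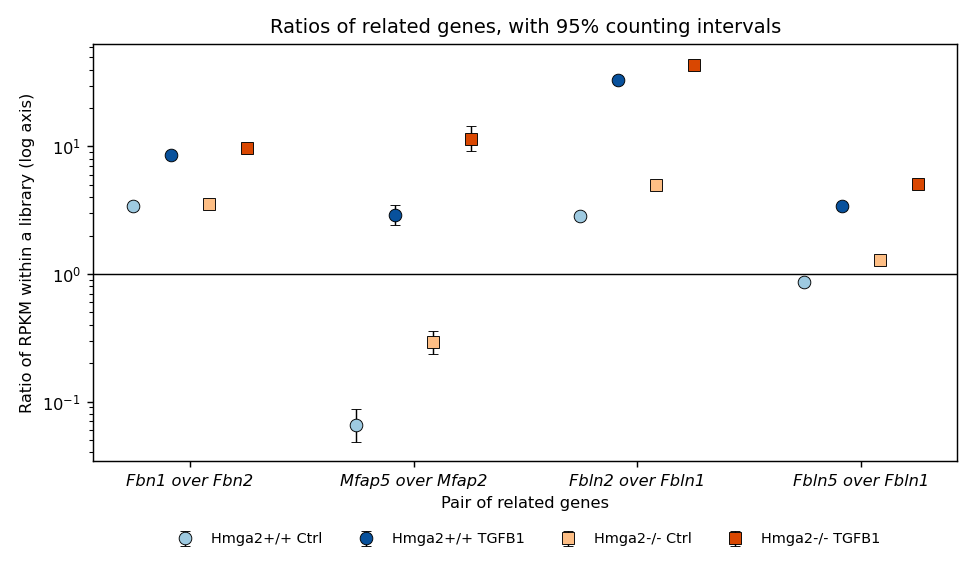
Ratio of the RPKM of related genes within each library (vertical axis, logarithmic) for 4 pairs (horizontal axis); points are single libraries, circles *Hmga2*+/+ and squares *Hmga2*-/-, pale Ctrl and dark TGFB1, bars are exact 95% counting intervals, and the line marks a ratio of 1. For *Mfap5* over *Mfap2* both Ctrl libraries lie below the line (0.0652 and 0.291) and both TGFB1 libraries above it (2.88 and 11.5).

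The promoters of 6 of the 10 genes are in the RefSeq promoter table of GRCm38.p6, the assembly that mm10 names, and those of *Eln*, *Fbn2*, *Mfap4* and *Mfap5* were not analysed here. The 250 bases upstream of the start of the transcript given above are printed for 2 genes that rose and 2 that fell, because they let the reader compare promoters of genes with opposite responses. Letters in capitals are matches, on either strand, to CAGAC, the core bound by SMAD proteins, or to GGGCGG, the GC box. Sequences run 5′ to 3′ on the strand of the gene, and that of *Mfap2* belongs to its longer transcript.
*Fbn1* (chr2:125506439-125506688, minus strand): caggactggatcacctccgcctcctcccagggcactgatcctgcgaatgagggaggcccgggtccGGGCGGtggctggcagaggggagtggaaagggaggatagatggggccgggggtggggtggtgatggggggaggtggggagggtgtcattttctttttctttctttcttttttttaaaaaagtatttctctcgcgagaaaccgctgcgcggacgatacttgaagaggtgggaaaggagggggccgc
*Fbln2* (chr6:91212514-91212763, plus strand): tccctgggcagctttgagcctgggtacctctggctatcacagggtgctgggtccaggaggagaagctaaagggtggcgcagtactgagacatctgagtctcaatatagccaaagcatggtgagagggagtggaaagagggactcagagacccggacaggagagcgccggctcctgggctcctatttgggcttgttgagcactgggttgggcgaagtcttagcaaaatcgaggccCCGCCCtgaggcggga
*Mfap2* (chr4:141010174-141010423, plus strand): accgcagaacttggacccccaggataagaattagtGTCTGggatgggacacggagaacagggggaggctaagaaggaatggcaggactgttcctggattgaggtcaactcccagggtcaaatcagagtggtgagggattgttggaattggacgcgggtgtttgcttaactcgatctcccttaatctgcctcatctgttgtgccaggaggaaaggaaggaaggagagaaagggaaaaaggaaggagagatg
*Emilin1* (chr5:30913536-30913785, plus strand): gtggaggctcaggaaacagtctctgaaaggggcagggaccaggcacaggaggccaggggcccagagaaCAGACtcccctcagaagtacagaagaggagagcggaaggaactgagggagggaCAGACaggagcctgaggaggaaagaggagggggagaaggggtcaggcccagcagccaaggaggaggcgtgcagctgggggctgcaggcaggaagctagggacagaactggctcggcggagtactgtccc

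In these windows *Fbn1* and *Fbln2*, which rose, each held 1 GC box and 0 matches to CAGAC, and *Fbln5* held 2 GC boxes and 0 matches to CAGAC. Of the genes that fell, *Mfap2* held 1 match to CAGAC, *Emilin1* held 2 and *Fbln1* held 2, and *Fbln1* alone among them held a GC box. *Fbln1*, *Fbln5* and *Mfap2* each have 2 windows in the promoter table, and only that of the transcript given above was described. Some shorter *Fbn1* transcripts start upstream, at chr2:125507993, so the *Fbn1* window used here lies within their span. Their own upstream bases were not described. The *Mfap2* transcript with the higher level starts downstream, at chr4:141010637. The match of *Mfap2*, at -215 to -211 from the start used here, lies outside a window of the same length at that start. Whether that window holds another match was not tested. CAGAC occurs in 42.2% and GGGCGG in 32.7% of the 32817 promoter windows of the same length, so each motif is common. TGANTCA, the AP-1 motif, and TATAAA, the TATA box, were found in none of the 6 windows and in 6.75% and 12.4% of all windows. No 2 of these 4 motifs overlapped in the 6 windows. The windows of *Fbn1*, *Fbln1* and *Fbln5* held 13, 14 and 21 CpG pairs and those of *Fbln2*, *Mfap2* and *Emilin1* held 8, 5 and 4, compared with a median of 6 over all windows. A match is a description of these letters and not a site of binding.

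**Figure D3:**
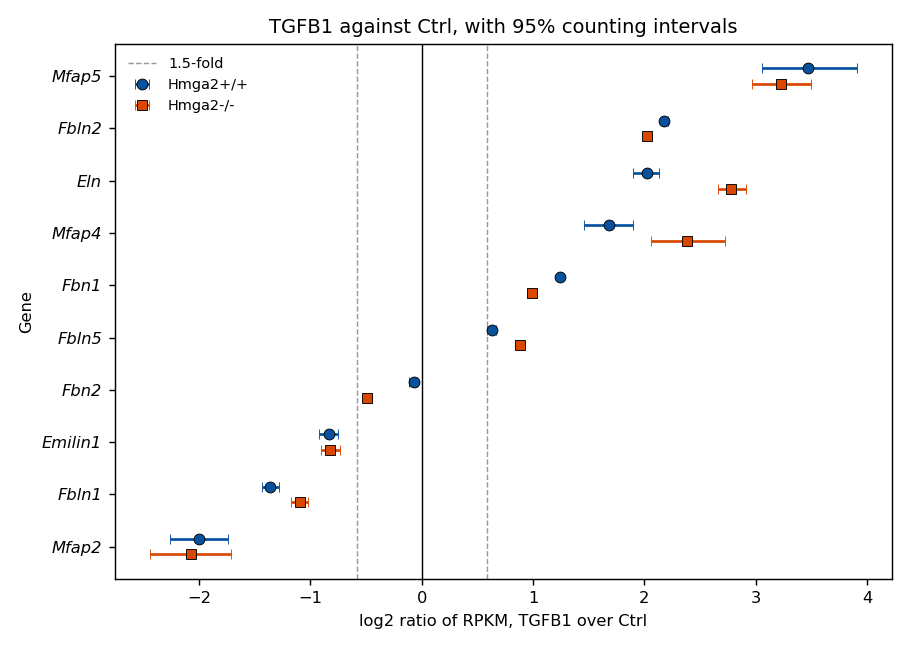
log2 ratio of RPKM in TGFB1 over Ctrl (horizontal axis) for the 10 genes (vertical axis), with circles for *Hmga2*+/+ and squares for *Hmga2*-/- MEF; each point compares 1 library with 1 library, bars are exact 95% counting intervals, and dashed lines mark 1.5-fold. The order runs from *Mfap5* (3.47 and 3.23) to *Mfap2* (-2.00 and -2.07), and *Eln* and *Mfap4* have the widest gaps between genotypes.

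Responses of the 2 genotypes were then set against each other. The log2 response to TGFB1 was higher in *Hmga2*-/- than in *Hmga2*+/+ MEF by at least 1.5-fold for 2 of the 10 genes, *Eln* and *Mfap4*, and lower by that much for 0 of 10. Of all 11025 genes, 2.57% responded at least 1.5-fold more and 1.8% at least 1.5-fold less in *Hmga2*-/- MEF. The difference of log2 responses was 0.77 (0.60 to 0.94) for *Eln* and 0.70 (0.31 to 1.09) for *Mfap4*, with intervals from the 4 read numbers by a normal approximation. With 1 RPKM added to every value *Mfap4* had log2 responses of 1.37 (*Hmga2*+/+) and 1.67 (*Hmga2*-/-), and its difference was no longer called. *Fbn2* had a difference of -0.41 (-0.47 to -0.36), *Fbn1* of -0.26 (-0.28 to -0.23) and *Fbln2* of -0.16 (-0.19 to -0.14), all within 1.5-fold. For *Fbn1* and *Fbln2* this was a smaller increase in *Hmga2*-/- MEF, and for *Fbn2* a lower level with TGFB1 in *Hmga2*-/- MEF beside a nearly flat one in *Hmga2*+/+ MEF. For *Fbln1* and *Fbln5* it was 0.26 and 0.25. The intervals of *Mfap2* (-0.50 to 0.37), *Mfap5* (-0.72 to 0.25) and *Emilin1* (-0.10 to 0.14) included 0, so at this depth no difference could be seen. The TGFB1 targets *Smad7* and *Ccn2* had differences of 0.40 and 0.14, so both also had larger responses in *Hmga2*-/- MEF, within 1.5-fold. Their part in the values of *Eln* and *Mfap4* was not tested.

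Without TGFB1, *Hmga2*-/- MEF differed from *Hmga2*+/+ MEF at the 3 microfibril-associated glycoproteins. *Mfap5* was 2.48-fold higher (log2 ratio 1.31, interval 0.84 to 1.80, or 0.67 with 1 RPKM added to every value), *Mfap4* was 2.39-fold lower (-1.26, -1.62 to -0.90) and *Mfap2* was 1.80-fold lower (-0.85, -1.05 to -0.65). Thus 1 of 10 genes was higher and 2 of 10 were lower, compared with 2.48% and 2.05% of all genes. *Fbln2* lay just under the threshold at 1.49-fold higher (0.57, 0.55 to 0.60) and passed it when the libraries were rescaled by the median ratio. *Eln* was 1.37-fold lower (-0.46, -0.62 to -0.30) and *Fbln5* was 1.27-fold higher (0.34, 0.30 to 0.38). *Fbn1*, *Fbn2*, *Fbln1* and *Emilin1* had log2 ratios between -0.25 and 0.15. The genotype comparisons share libraries with the TGFB1 comparisons, so a low Ctrl value enters both. Markers with at least 1 RPKM in a Ctrl library also differed between the genotypes. In *Hmga2*-/- Ctrl, *Cnn1* was 2.38-fold, *Tek* 2.05-fold and *Vim* 1.56-fold higher, and *Sox9* 1.79-fold and *Lum* 1.53-fold lower. The part of these markers was not tested.

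With TGFB1, *Mfap5* was 2.1-fold higher (log2 ratio 1.07, interval 0.93 to 1.22) and *Fbln5* 1.51-fold higher (0.59, 0.56 to 0.62) in *Hmga2*-/- MEF, and *Mfap2* was 1.89-fold lower (-0.92, -1.33 to -0.52). This makes 2 of 10 genes higher and 1 lower, compared with 3.34% and 2.28% of all genes. The *Fbln5* call rests on the threshold, since it was lost when the libraries were rescaled by the median ratio or a pseudocount of 1 RPKM was added. *Mfap4* was 1.47-fold lower (-0.55, -0.72 to -0.39), *Fbln2* was 1.33-fold higher and *Eln* was 1.24-fold higher (0.31, 0.24 to 0.38). *Mfap5* was thus higher and *Mfap2* lower in *Hmga2*-/- MEF in both treatments. The interval of *Fbln1* (log2 ratio 0.02, -0.07 to 0.11) included 0. Of the markers with at least 1 RPKM in a TGFB1 library, *Cnn1* was 2.4-fold, *Kdr* 1.66-fold and *Acta1* 6.2-fold higher in *Hmga2*-/- TGFB1, and *Acan* was 1.89-fold lower. *Acta1* and *Acan* each reached 1 RPKM in only 1 TGFB1 library, so their direction follows from that limit. The part of these markers was not tested here either.

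**Figure D4:**
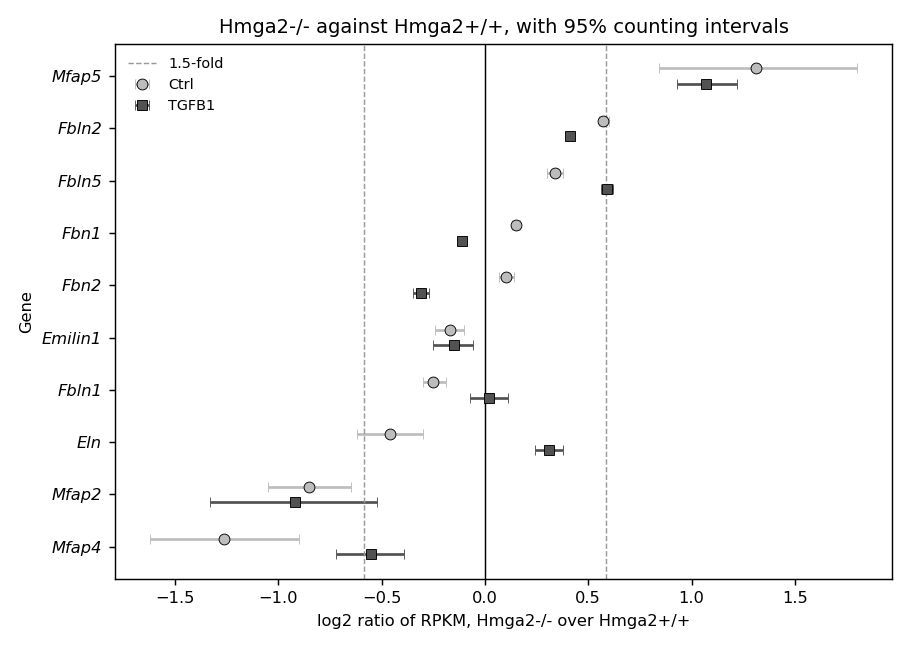
log2 ratio of RPKM in *Hmga2*-/- over *Hmga2*+/+ MEF (horizontal axis) for the 10 genes (vertical axis), with circles for Ctrl and squares for TGFB1; each point compares 1 library with 1 library, bars are exact 95% counting intervals, and dashed lines mark 1.5-fold. *Mfap5* lies to the right (1.31 and 1.07) and *Mfap2* to the left (-0.85 and -0.92) in both treatments, and *Eln* changes side (-0.46 and 0.31).

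Values for the other transcripts of the same genes showed the same directions after TGFB1. Transcripts that overlap share reads, so they are not independent. The 4 *Fbn1* transcripts had log2 ratios between 1.08 and 1.24 in *Hmga2*+/+ and between 0.89 and 0.99 in *Hmga2*-/- MEF. The 3 shorter ones, which cover the 5′ part of the gene, had between 15.4 and 16.0 RPKM in *Hmga2*+/+ Ctrl, well below the 66.6 RPKM of the full-length transcript. The 3 *Fbln2* transcripts had log2 ratios between 1.87 and 2.18 in *Hmga2*+/+ and between 2.01 and 2.02 in *Hmga2*-/- MEF. For *Fbln1*, a transcript of 273 bases at the end of the shorter gene form fell more in *Hmga2*+/+ (7.31 to 1.98 RPKM, log2 ratio -1.88) than its gene-length transcript (-1.36). The Ctrl comparison of genotypes was between 0.24 and 0.57 over the 3 *Fbln2* transcripts, the lowest from a fragment of 571 bases. No transcript of another gene overlapped any of the 10 genes on the same strand.

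A further 45 genes that make, bind, anchor or degrade elastic fibres were described as a list, of which 35 reached 1 RPKM in at least 1 library. In *Hmga2*+/+ MEF 11 of the 35 rose and 10 fell, beside 11.7% and 17.1% of all genes. In *Hmga2*-/- MEF 12 rose and 11 fell, beside 13.4% and 15.5%. *Mfap3l* and *Itgb3* reached 1 RPKM only with TGFB1 and *Fbln7* only in Ctrl, so the direction of these genes follows from the filter. The median log2 ratio of the 35 was -0.08 in *Hmga2*+/+ and 0.05 in *Hmga2*-/- MEF.

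Of 13 genes of assembly and cross-linking, 4 rose and 3 fell in *Hmga2*+/+ MEF, beside 11.7% and 17.1% of all genes. *Lox*, the main lysyl oxidase that cross-links elastin and collagen, had 155 RPKM in *Hmga2*+/+ Ctrl and 547 RPKM in *Hmga2*+/+ TGFB1, and the *Hmga2*-/- values were 146 RPKM in Ctrl and 726 RPKM in TGFB1. *Ltbp2*, whose product is a fibrillin-binding member of the latent TGF-beta binding protein family, rose from 11.0 to 74.1 RPKM and from 10.9 to 93.5 RPKM. *Loxl2* and *Loxl3* rose by log2 ratios of 0.61 and 0.72 in *Hmga2*+/+ and 1.12 and 1.33 in *Hmga2*-/- MEF. *Loxl1*, the lysyl oxidase tied to elastic fibre upkeep, had log2 ratios within 1.5-fold in both genotypes, with 24.4 and 26.7 RPKM in *Hmga2*+/+ and 26.8 and 36.4 RPKM in *Hmga2*-/- MEF. *Efemp2*, a fibulin that binds lysyl oxidase and is required for elastic fibres, likewise had 34.6 and 31.4 RPKM and 37.2 and 34.5 RPKM.

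The other 3 genes of the fibulin family on the list fell like *Fbln1* in both genotypes, while *Efemp2* did not. Of all genes, 17.1% fell in *Hmga2*+/+ and 15.5% in *Hmga2*-/- MEF. *Fbln7* reached 1 RPKM only in Ctrl, so its direction follows from the filter. *Efemp1* went from 5.54 to 1.77 RPKM in *Hmga2*+/+ MEF, and the *Hmga2*-/- values were 12.0 RPKM in Ctrl and 3.90 RPKM in TGFB1. *Fbln7* went from 3.43 to 0.561 RPKM and from 3.52 to 0.528 RPKM, and *Hmcn1*, a very large fibulin-related gene, from 6.64 to 1.35 RPKM and from 6.10 to 0.778 RPKM. *Emilin2* fell like *Emilin1*, from 4.69 to 2.34 RPKM and from 4.58 to 2.18 RPKM, while *Emilin3*, *Mmrn1* and *Mmrn2* stayed under 1 RPKM.

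Among microfibril-associated genes 7 of 10 reached 1 RPKM. *Mfap3l*, which shares its name but not its family with the fibrillin-binding genes, rose from 0.859 to 4.39 RPKM and from 0.979 to 4.92 RPKM. *Adamts10* and *Adamtsl4*, whose products bind fibrillin, fell in both genotypes, with log2 ratios of -0.78 and -1.78 in *Hmga2*+/+ and -0.64 and -1.41 in *Hmga2*-/- MEF. *Adamtsl5* fell in *Hmga2*+/+ MEF with a log2 ratio of -0.90 and was at -0.49 in *Hmga2*-/- MEF. *Mfap1b* passed the threshold in *Hmga2*-/- MEF (-0.63) and is uncertain, since reads can be split between it and its near-identical copy *Mfap1a*.

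Of 8 elastolytic enzymes 4 reached 1 RPKM. Of these *Mmp14*, a membrane-bound metalloproteinase, fell from 193 to 121 RPKM in *Hmga2*+/+ MEF, and the *Hmga2*-/- values were 211 RPKM in Ctrl and 131 RPKM in TGFB1. *Mmp2*, *Ctsk* and *Ctsl* stayed within 1.5-fold in both genotypes. *Mmp9*, *Mmp12*, *Ctss* and *Elane*, the proteases of inflammatory cells, were at or under 0.158 RPKM in every library.

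Of 10 receptor genes, the same 6 integrin genes rose in both genotypes, beside 11.7% of all genes in *Hmga2*+/+ and 13.4% in *Hmga2*-/- MEF. One of the 6, *Itgb3*, reached 1 RPKM only with TGFB1, so its direction follows from the filter. *Itgav*, whose product pairs with several beta subunits to bind fibrillin and fibulins, went from 27.5 to 60.2 RPKM in *Hmga2*+/+ MEF, and the *Hmga2*-/- values were 26.2 RPKM in Ctrl and 75.1 RPKM in TGFB1. *Itga5* went from 11.9 to 25.6 RPKM and from 11.9 to 35.6 RPKM, and *Itgb1* from 155 to 285 RPKM and from 160 to 340 RPKM. *Itgb3*, *Itgb5* and *Itga8* rose by log2 ratios between 0.64 and 1.29 in *Hmga2*+/+ MEF. *Itgb8* fell in *Hmga2*-/- MEF (4.15 to 2.14 RPKM) and had 4.50 and 3.89 RPKM in *Hmga2*+/+ MEF. *Glb1* and *Ctsa*, which encode parts of the elastin receptor complex of the cell surface as well as lysosomal enzymes, fell in both genotypes, *Ctsa* from 31.8 to 16.9 RPKM and from 26.4 to 15.1 RPKM.

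**Figure D5:**
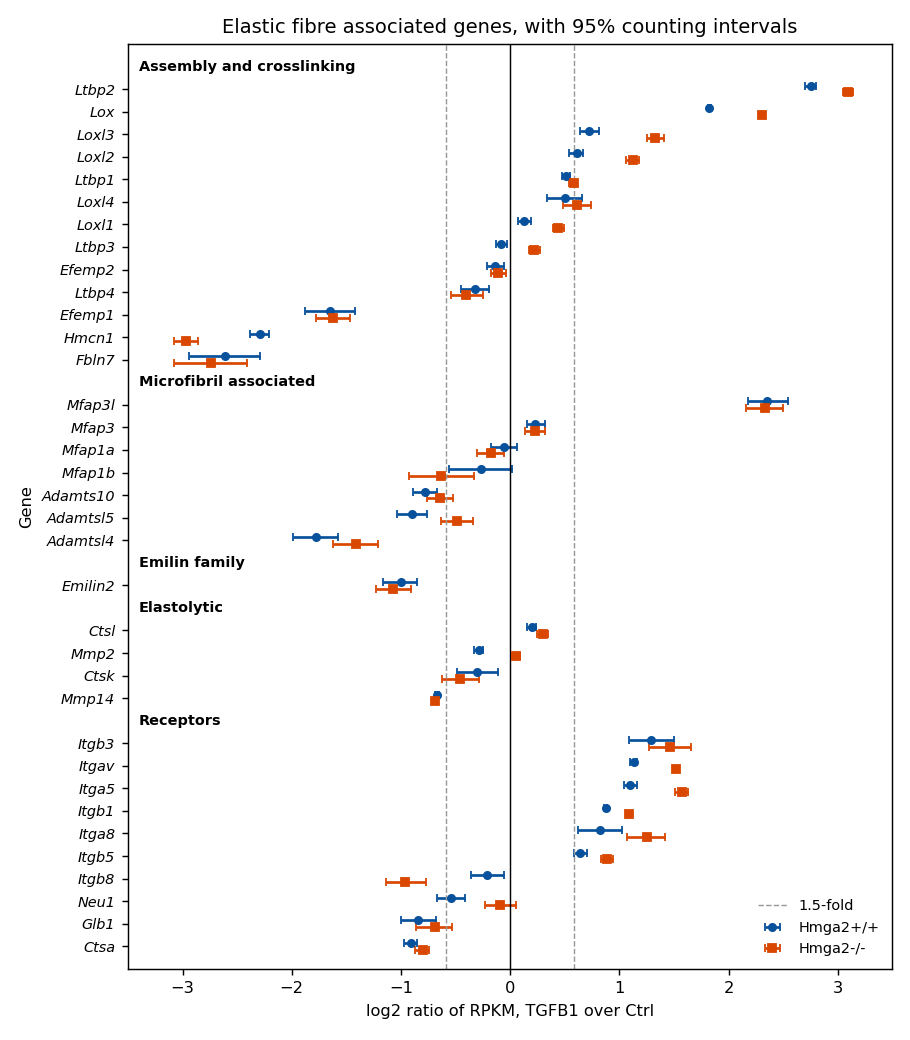
log2 ratio of RPKM in TGFB1 over Ctrl (horizontal axis) for the 35 elastic fibre associated genes that reached 1 RPKM, by role (vertical axis), with circles for *Hmga2*+/+ and squares for *Hmga2*-/- MEF; each point compares 1 library with 1 library, bars are exact 95% counting intervals, and dashed lines mark 1.5-fold. *Ltbp2* and *Lox* lie to the right, *Fbln7* and *Hmcn1* to the left, and 6 integrin genes lie to the right of 1.5-fold in both genotypes. *Mfap3l* and *Itgb3* reached 1 RPKM only with TGFB1 and *Fbln7* only in Ctrl, so their direction follows from the filter.

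Between genotypes, 2 of the 35 genes were higher and 0 lower in Ctrl, beside 2.48% and 2.05% of all genes, and 3 were higher and 2 lower in TGFB1, beside 3.34% and 2.28%. In Ctrl, *Efemp1* (log2 ratio 1.11, interval 0.98 to 1.25) and *Loxl4* (0.61, 0.45 to 0.77) were higher in *Hmga2*-/- MEF. In TGFB1, *Efemp1*, *Loxl4* and *Itga8* were higher and *Hmcn1* and *Itgb8* lower, with log2 ratios of 1.14, 0.72, 0.64, -0.80 and -0.86.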

How the data were processed

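RNA-seq of 4 libraries was analysed, 1 per combination of genotype and treatment. The authors used trimmomatic for trimming, HISAT2 2.1.0 for mapping to mm10 and HOMER for counting on the strand of UCSC known genes, over exons per the file headers; RPKM rounded to 3 decimals were deposited. The authors' exonic length in bases was the other column used. The study speaks of duplicates, and whether they were pooled is not stated. Transcripts were named where at least 50% of the span overlapped a gene of GENCODE vM21, same strand. Mapped reads were derived from the steps of low RPKM values, as the depth that turns transcripts under 600 bases into whole reads (100% of tested values within 0.1 read). Ratios have exact (Clopper-Pearson) 95% intervals from these reads. As the values are RPKM without replicates, no count test was run. Genes and lists were chosen by name with earlier results of these data known. Named beside the 10 genes were listed genes past 1.5-fold with at least 1 RPKM, some within it, *Hmga2*, TGFB1 targets and, for each gene at 1 RPKM in all libraries, the protein-coding gene with the nearest profile. One of the TGFB1 targets is not reported here. Steps were tested on simulated data. Python 3.11.15, numpy 2.4.6, pandas 2.3.3, scipy 1.17.1 and matplotlib 3.10.9 were used. Alternatives changed scaling, pseudocount, threshold, transcript, naming and filter.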

Additional observations from a re-analysis of the deposited data

Results flagged for a closer look

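For 3 genes the difference between genotypes had opposite directions in Ctrl and TGFB1, with counting intervals that excluded 0 in each. The log2 ratio of *Hmga2*-/- over *Hmga2*+/+ was -0.46 in Ctrl and 0.31 in TGFB1 for *Eln*. For *Fbn1* it was 0.15 in Ctrl and -0.11 in TGFB1, and for *Fbn2* it was 0.10 in Ctrl and -0.31 in TGFB1. All of these ratios are within 1.5-fold. Each value compares 1 library with 1 library, so whether the directions differ between conditions was not tested.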

How the results depend on the processing

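With 1 library per group the spread between cultures is unknown, depth limits mainly *Mfap2*, *Mfap4* and *Mfap5*, and leaving out a library removes each comparison it enters rather than giving it another value. No paired analysis was possible because each group has 1 library. Of 280 ratios of the 10 genes under alternatives, 23 left their counting interval and no called ratio changed sign. Of the 23, 10 came with a pseudocount of 1 RPKM and 5 after rescaling. Another 4 came with the median over transcripts and 4 with the transcripts of the highest mean RPKM. Naming at 90% overlap moved no ratio, so its part of the 280 is no check of these values. The causes were not tested. Scaling moved log2 ratios by at most 0.03. The alternative that keeps protein-coding genes alone was chosen after seeing the data and left each background count within 1.5 times.

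After rescaling, 2 of the 10 genes were higher in *Hmga2*-/- Ctrl and 1 in *Hmga2*-/- TGFB1, while of all genes 291 and 325 were higher. With a pseudocount of 1 RPKM, 1 was higher in *Hmga2*-/- TGFB1 and 1, *Eln*, responded more in *Hmga2*-/- MEF; of all genes 1214 and 1104 fell after TGFB1 in *Hmga2*+/+ and *Hmga2*-/- MEF, 115 were higher and 93 lower in *Hmga2*-/- Ctrl, and 178 higher and 79 lower in *Hmga2*-/- TGFB1. At 2-fold, 5 of the 10 rose and 2 fell after TGFB1 in *Hmga2*+/+ MEF. In *Hmga2*-/- MEF 4 rose and 2 fell, with *Fbn1* at 1.98-fold. Between genotypes, 1 of the 10 was lower in *Hmga2*-/- Ctrl, 1 higher and 0 lower in *Hmga2*-/- TGFB1, and 0 responded more in *Hmga2*-/- MEF. Of all genes 545 rose and 790 fell after TGFB1 in *Hmga2*+/+ and 628 rose and 764 fell in *Hmga2*-/- MEF, 77 were higher and 77 lower in *Hmga2*-/- Ctrl, and 102 higher and 78 lower in *Hmga2*-/- TGFB1. With no filter on low values (24933 genes), 2839 rose and 4733 fell in *Hmga2*+/+, 3139 rose and 4535 fell in *Hmga2*-/- MEF, 2036 were higher and 2082 lower in *Hmga2*-/- Ctrl, and 2256 higher and 1960 lower in *Hmga2*-/- TGFB1.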

Other observations

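The protein-coding gene with the profile nearest to each of the 9 genes at 1 RPKM or more in all libraries was sought among 9706 genes, by the Euclidean distance of log2 RPKM centred over the 4 libraries. With 4 points per gene this is a description. For *Eln* it was *Thbs2*, which encodes a matricellular thrombospondin, at a distance of 0.23, with 28.5 RPKM in *Hmga2*+/+ Ctrl, 116 RPKM in *Hmga2*+/+ TGFB1, 17.2 RPKM in *Hmga2*-/- Ctrl and 137 RPKM in *Hmga2*-/- TGFB1. For *Mfap2* it was *Pcdh9*, a protocadherin gene, at 0.25, and for *Mfap4* it was *Enpp1*, a pyrophosphatase gene, at 0.65, the farthest of the 9. For the other 6 genes it lay within 0.10: *Nop56* for *Fbn1*, *Phip* for *Fbn2*, *Cirbp* for *Fbln1*, *Irx3* for *Fbln2*, *Noct* for *Fbln5* and *Pcmtd2* for *Emilin1*. Within the 10 genes, *Fbln1* and *Emilin1* were each other's nearest at 0.42, as were *Fbn1* and *Fbln5* at 0.62 and *Eln* and *Fbln2* at 0.79.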
